A study of Mus musculus with 4 samples.

Results

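The genes described here code for GDNF and other secreted factors that support nerve cells and that muscle tissue can express, together with the GDNF receptors. They are Gdnf, Nrtn, Gfra1, Ret, Bdnf, Ntf3, Ntf5, Cntf and Lif, which are 9 of the 51826 genes in the count table, and each was found by its gene symbol. The list was put together with the WT and Mef2dα2 Eko levels of these genes already known, so their differences between the genotypes are given as a description, and no test of them is read as a result. Quadriceps RNA was sequenced from 4 male C57BL6/J mice of 20 weeks, 2 WT and 2 Mef2dα2 Eko, with 1 library per mouse. Mef2dα2 Eko mice lack the muscle-specific α2 exon of Mef2d, a MEF2 family transcription factor, through a germline CRISPR-Cas9 deletion, so the exon is missing in every tissue and not in muscle fibres alone. All the mice were sedentary littermates, and the founder line that gave the sequenced animals is not stated in the sources used here. Values of the 2 mice of a genotype are written in the order of replicate 1 and replicate 2.

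GDNF and neurturin, the product of Nrtn, are ligands that bind a membrane-anchored GFRα co-receptor, and the complex then activates the receptor tyrosine kinase RET. The neurotrophins BDNF, NT-3 (Ntf3) and NT-4 (Ntf5) bind Trk receptors and the shared receptor p75NTR, while CNTF and LIF are cytokines that signal through gp130. In muscle, factors of these families are known for supporting motor and sensory neurons and the neuromuscular junction.

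The libraries held between 72626757 and 85176059 expected counts, and 16120 genes were abundant enough to be tested. A count of 3, used as the floor of detection, stood for 0.0348 to 0.0419 CPM, the usual scaling of counts to the total of a library, and intervals drawn from counts cover counting error only. The skeletal muscle fibre markers together took 117500 and 119100 CPM in WT against 116000 and 121400 CPM in Mef2dα2 Eko, so the libraries matched their label as muscle. The gene total of Mef2d, the targeted gene, was 19687 and 18393 counts in WT against 21695 and 17206 in Mef2dα2 Eko, and this total does not separate the α2 exon from the rest of the gene. With 2 mice against 2, an exact two-sided permutation test of a single value cannot go below p = 0.333.

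Gdnf lies on the plus strand of chromosome 15 (GRCm38, chr15:7810846-7837575) and has 1 annotated transcript with 3674 exonic bases. Because Gdnf showed the largest difference of the 9 genes, the 300 bases around each of its RefSeq start sites (GRCm38.p6) are printed, from 250 bases before the start. The windows are chr15:7809798-7810097 and chr15:7813477-7813776, both on the plus strand, and the first of these starts upstream of the GENCODE gene model. Capitals mark matches to the motifs searched on both strands.
Gdnf promoter 1: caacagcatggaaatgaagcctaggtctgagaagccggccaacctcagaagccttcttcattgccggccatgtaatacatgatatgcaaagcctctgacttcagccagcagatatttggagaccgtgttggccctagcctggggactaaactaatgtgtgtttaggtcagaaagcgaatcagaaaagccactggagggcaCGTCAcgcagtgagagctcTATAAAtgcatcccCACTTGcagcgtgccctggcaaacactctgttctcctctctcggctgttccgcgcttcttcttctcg
Gdnf promoter 2: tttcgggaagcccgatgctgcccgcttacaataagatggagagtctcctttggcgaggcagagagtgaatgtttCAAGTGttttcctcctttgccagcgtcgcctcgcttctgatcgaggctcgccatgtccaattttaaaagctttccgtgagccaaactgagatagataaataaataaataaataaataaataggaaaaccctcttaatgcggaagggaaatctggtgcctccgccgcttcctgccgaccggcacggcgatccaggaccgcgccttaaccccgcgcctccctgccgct
The motifs were the MEF2 site, the E-box CANNTG, the cyclic AMP response element TGACGTCA and its core TGACG, the AP-1 site TGANTCA and the TATA element TATAAA. In promoter 1, TATAAA began at position -31 from the start site, the TGACG core on the reverse strand at -50 and an E-box at -17. Promoter 2 held 1 match, an E-box that began at position -176. Of 32851 promoter windows of the same length, 13.6% held TATAAA, 20.8% held TGACG and 72.3% held an E-box.

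RefSeq windows were found for 7 of the 9 genes, 15 windows in all, and Ret and Ntf5 had no entry. A MEF2 site was present in 3.19% of all windows and in 0 of these 15. A letter match is no measured site, and its absence refers to these 300 bases only. The 2 Gdnf windows each had a GC content of 51.7%, close to the median of 52.7% over all windows, but held 11 and 22 CpG pairs against a median of 7. The single Nrtn window (chr17:56757499-56757798, minus strand) had a GC content of 66.7% and 28 CpG pairs. The AP-1 letters, present in 7.81% of all windows, were found in 1 window each of Bdnf, Cntf and Lif.

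Gdnf had the largest difference between the genotypes among the 9 genes and was at a low level in all libraries. Its expected counts were 19 and 38 in WT against 117 and 86 in Mef2dα2 Eko. Both Mef2dα2 Eko mice were above both WT mice. The exact 95% Poisson intervals of the counts were 11.4 to 29.7 and 26.9 to 52.2 in WT. In Mef2dα2 Eko they were 96.8 to 140 and 68.8 to 106. These intervals did not overlap between the genotypes, but they rest on unscaled counts and leave out the variation between mice. In CPM the WT values were 0.25 and 0.470 and the Mef2dα2 Eko values 1.36 and 1.20, with means of 0.360 ± 0.155 and 1.28 ± 0.109 CPM (SD, n = 2). The difference was 1.82 on the log2 scale (SE 0.35, 95% interval 0.98 to 2.66, adjusted p of 0.13 by edgeR), which is a fold of 3.53. By this difference Gdnf stood in place 24 from the highest among the 16120 genes tested, while only 22.5% of those genes had a lower mean CPM.

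Each WT library weighed on the size of the Gdnf difference. It was 1.45 without WT replicate 1 and 2.36 without WT replicate 2. It stayed positive in all 13 alternative settings, and groups that do not overlap leave little room for another sign.

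**Figure D1:**
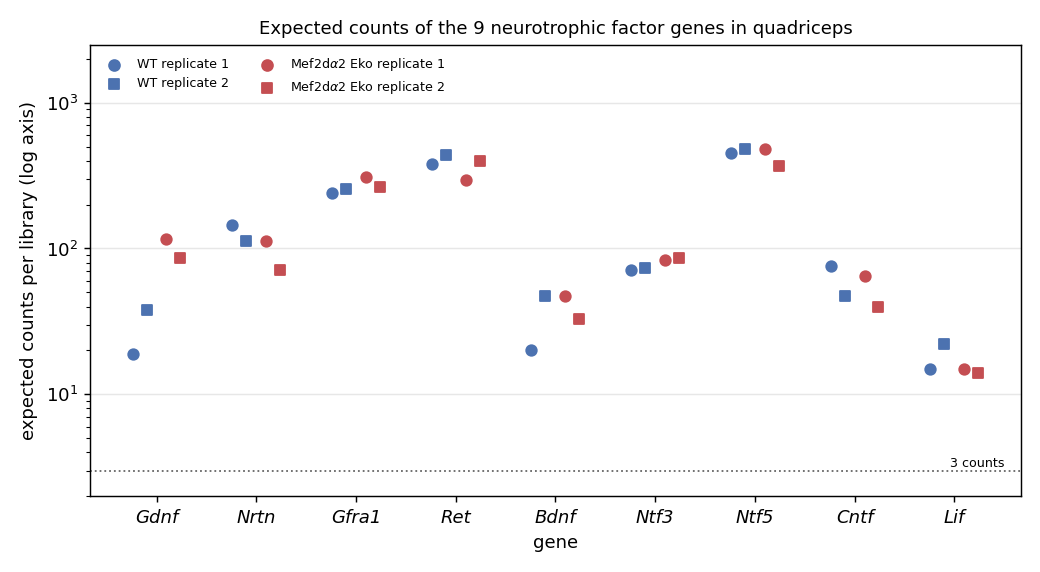
Expected counts of each of the 9 genes (log axis) in the 4 quadriceps libraries, WT in blue and Mef2dα2 Eko in red, with circles for replicate 1, squares for replicate 2 and a dotted line at 3 counts. Gdnf is the gene with the widest gap, from 19 and 38 counts in WT to 117 and 86 in Mef2dα2 Eko, and Lif has the fewest counts, 14 to 22.

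Nrtn, the other ligand of this family on the list, had lower values in Mef2dα2 Eko. It is on the minus strand of chromosome 17 (chr17:56751325-56757530) with 1023 exonic bases. Its counts were 145 and 113 in WT against 113 and 71 in Mef2dα2 Eko, or 1.91 and 1.40 CPM against 1.31 and 0.993 CPM. Both Mef2dα2 Eko libraries lay below both WT libraries in CPM, although the nearest pair had the same count of 113. The log2 difference was -0.52 (SE 0.26, 95% interval -1.13 to 0.10), with an interval that includes 0. Without WT replicate 1 it was -0.27 and without Eko replicate 1 it was -0.72.

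The balance of the ligand pair differed between the genotypes. Per kilobase of exon, Gdnf stood at 3.65% and 9.36% of the Nrtn level in WT and at 28.8% and 33.7% in Mef2dα2 Eko. Gdnf thus made up 3.52% and 8.56% of the summed level of the pair in WT and 22.4% and 25.2% in Mef2dα2 Eko. Nrtn remained the more abundant of the pair in all 4 libraries. The remaining ligands of the family were close to absent, with Artn (artemin) at 6 and 6 counts in WT against 2 and 4 in Mef2dα2 Eko. Pspn (persephin) had 1 and 0 counts in WT against 0 and 1 in Mef2dα2 Eko, at or under the floor of 3 counts in each library.

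The genes for the GDNF receptors showed smaller differences than Gdnf, with intervals that include 0. Gfra1, which codes for the co-receptor that prefers GDNF, lies on the minus strand of chromosome 19 (chr19:58235604-58455909), with 5476 exonic bases over 9 transcripts. Its counts were 242 and 256 in WT against 307 and 263 in Mef2dα2 Eko, or 3.18 ± 0.0167 against 3.62 ± 0.0823 CPM (mean ± SD, n = 2). Both Mef2dα2 Eko mice lay above both WT mice, by 0.19 on the log2 scale (SE 0.14, 95% interval -0.13 to 0.51). The antisense gene Gm16277 covers 7.6% of the Gfra1 exonic bases and had 0 counts in all libraries.

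Ret, the signalling receptor, lies on the minus strand of chromosome 6 (chr6:118151745-118197718) with 6763 exonic bases. Its counts were 380 and 437 in WT against 293 and 395 in Mef2dα2 Eko, or 5.01 and 5.40 CPM against 3.40 and 5.52 CPM. The genotypes overlapped, since Mef2dα2 Eko held both the lowest and the highest library. The log2 difference was -0.23 (SE 0.22, 95% interval -0.76 to 0.30), and its direction rested on Eko replicate 1, without which it was 0.10. Without Eko replicate 2 it was -0.62.

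Among the other receptors of the family, Gfra2, the co-receptor that prefers neurturin, had 72 and 99 counts in WT against 76 and 92 in Mef2dα2 Eko. Ncam1, an adhesion molecule that can act as an alternative GDNF receptor, had 289 and 356 counts in WT against 358 and 369 in Mef2dα2 Eko. The groups overlapped in CPM for both of these genes. Gfra4, the persephin co-receptor, was at 1.16 and 0.767 CPM in WT against 0.545 and 0.559 CPM in Mef2dα2 Eko, a log2 difference of -0.80 (SE 0.32) with an adjusted p of 0.406 by edgeR.

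Ntf5, which codes for NT-4, was the most abundant of the 9 genes per kilobase in every library. It lies on the plus strand of chromosome 7 (chr7:45413695-45417179) with 2653 exonic bases. Its counts were 452 and 483 in WT against 483 and 366 in Mef2dα2 Eko, or 5.96 and 5.97 CPM against 5.60 and 5.12 CPM. Both Mef2dα2 Eko libraries lay below both WT libraries, but the log2 difference was small at -0.15 (SE 0.11, 95% interval -0.43 to 0.12). Of the summed level of Bdnf, Ntf3 and Ntf5 per kilobase, Ntf5 made up 79.2% and 78.2% in WT against 76.5% and 71.3% in Mef2dα2 Eko.

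Ntf3, the gene for NT-3, was expressed at about 1 CPM. It lies on the minus strand of chromosome 6 (chr6:126101412-126166910) with 1714 exonic bases. Its counts were 71 and 74 in WT against 83 and 86 in Mef2dα2 Eko, or 0.936 and 0.915 CPM against 0.963 and 1.20 CPM. Both Mef2dα2 Eko mice were above both WT mice, the nearer of them by a narrow margin, and the log2 difference was 0.22 (SE 0.25, 95% interval -0.37 to 0.82). Without Eko replicate 2 it was 0.06.

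Bdnf, the activity-regulated neurotrophin, was close to Gdnf in count in WT but not in Mef2dα2 Eko. It lies on the plus strand of chromosome 2 (chr2:109674700-109727007) with 6217 exonic bases over 11 transcripts. Its counts were 20 and 47 in WT against 47 and 33 in Mef2dα2 Eko, or 0.264 and 0.581 CPM against 0.545 and 0.461 CPM. Both Mef2dα2 Eko values fell between the WT values, so the genotypes overlapped. The log2 difference of 0.25 (SE 0.45, 95% interval -0.81 to 1.31) became -0.20 without WT replicate 1 and 0.95 without WT replicate 2. Per kilobase, the ratio of Gdnf to Bdnf was 1.61 and 1.37 in WT against 4.21 and 4.41 in Mef2dα2 Eko. The antisense gene Gm45346, over 14.4% of the Bdnf exonic bases, had 0 counts.

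The neurotrophin receptors were measured at levels that let some of them be compared. Ntrk2, the receptor of BDNF and NT-4, had 319 and 226 counts in WT against 330 and 213 in Mef2dα2 Eko, with full overlap of the genotypes. Ntrk3, the NT-3 receptor, had 24 and 17 counts in WT against 54 and 17 in Mef2dα2 Eko, with Eko replicate 1 alone above the rest and a log2 difference of 0.73 (SE 0.55). Ngfr, which codes for p75NTR, was at 0.422 and 0.309 CPM in WT against 0.545 and 0.727 CPM in Mef2dα2 Eko, with both Mef2dα2 Eko mice above both WT mice. The Ngfr log2 difference was 0.80 (SE 0.37, adjusted p of 0.472 by edgeR).

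The cytokine genes were low and did not separate clearly. Cntf, whose product is known from Schwann cells, lies on the minus strand of chromosome 19 (chr19:12763660-12765632) with 1073 exonic bases. Its counts came to 76 and 47 in WT against 65 and 40 in Mef2dα2 Eko, or 1.00 and 0.581 CPM against 0.754 and 0.559 CPM. The genotypes overlapped, and the log2 difference of -0.26 (SE 0.36, 95% interval -1.12 to 0.60) became 0.18 without WT replicate 1. Zfp91 shares 78.9% of the exonic bases of Cntf on the same strand and stood at 406 to 421 CPM, so the reads given to Cntf depended on how RSEM divided them and its level is uncertain.

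Lif, a cytokine known to be induced by muscle injury, had the lowest mean level of the 9 genes. It lies on the plus strand of chromosome 11 (chr11:4257557-4272514) with 4350 exonic bases. Its counts were 15 and 22 in WT against 15 and 14 in Mef2dα2 Eko, or 0.198 and 0.272 CPM against 0.174 and 0.196 CPM. Both Mef2dα2 Eko libraries were below both WT libraries in CPM, but the 95% interval of the log2 difference of -0.35 (SE 0.47) ran from -1.47 to 0.77. The difference was -0.08 without WT replicate 2 and -0.56 without WT replicate 1. Only 7.35% of the genes tested had a lower mean CPM than Lif.

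The receptors of these cytokines were far more abundant than the ligands in CPM. Il6st, the gene for gp130, was at 182 and 163 CPM in WT against 150 and 169 CPM in Mef2dα2 Eko. Lifr was at 90.7 and 120 CPM in WT against 84.2 and 91.8 CPM in Mef2dα2 Eko, a log2 difference of -0.26 (SE 0.13, adjusted p of 0.501 by edgeR). Cntfr, the CNTF-specific subunit, was at 18.8 and 22.7 CPM in WT against 22.5 and 20.9 CPM in Mef2dα2 Eko. All 3 receptor genes overlapped between the genotypes.

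**Figure D2:**
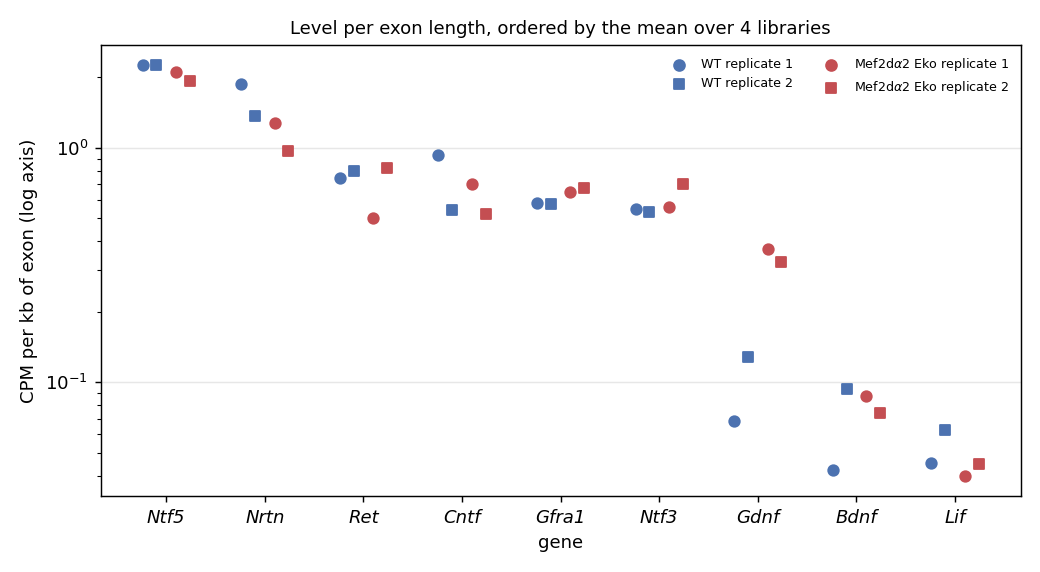
Level of each of the 9 genes as CPM per kilobase of exon (log axis) in the 4 quadriceps libraries, ordered by the mean of the 4. Ntf5 and Nrtn are highest in every library, Gdnf is in place 7 in every library, and Bdnf and Lif are lowest.

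Ordered by mean level over the 4 libraries, Ntf5 was highest at 2.13 CPM per kilobase and Nrtn followed at 1.37. Ret (0.715), Cntf (0.675), Gfra1 (0.621) and Ntf3 (0.586) formed a middle group in which no neighbours differed beyond their range over the libraries. Gdnf came next at 0.223, then Bdnf at 0.0744 and Lif at 0.0482 CPM per kilobase. The ranges did not overlap between Ntf5 and Nrtn, between Nrtn and Ret, or between Ntf3 and Gdnf, and they did between Gdnf and Bdnf and between Bdnf and Lif. The higher Gdnf level in Mef2dα2 Eko did not change its place, which was 7 in all 4 libraries. The ratio of Gfra1 to Ret per kilobase was 0.786 and 0.724 in WT against 1.29 and 0.822 in Mef2dα2 Eko, and Eko replicate 1, the library with the lowest Ret level, was the one above 1.

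All 9 genes passed the filter on low counts. By edgeR with Benjamini-Hochberg adjustment, 0 of the 9 passed an adjusted p of 0.05, against 0.416% of the 16120 genes tested (0.105% higher and 0.310% lower in Mef2dα2 Eko), and 1 of the 9, Gdnf, had an unadjusted p below 0.05, against 11.6% of all genes tested. DESeq2 and edgeR's likelihood ratio test each called 1, Gdnf, and limma-voom called 0, against 318, 312 and 57 of the 16120 genes tested. Without WT replicate 2, which left a lone WT mouse, the log2 difference of Gdnf was 2.36. The groups did not overlap for 6 of the 9, with 3 above and 3 below WT, while 43.8% of all genes tested did not overlap, 20.8% above and 23.0% below. The median log2 difference of the 9 was -0.15 and that of all genes tested was -0.01. These counts come from the contrast that chose the genes and nothing is read from them.

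A further 56 genes of these pathways were examined: ligands, receptors, RET adaptors, proteases that process neurotrophin precursors, and other factors that act on nerve. Of these, 44 could be tested and 12 had at most 10 counts in any library. By edgeR 0 passed the adjusted p of 0.05 in either direction and 5 had an unadjusted p below 0.05, namely Igf1, Ptn, Gfra4, Gab2 and Furin, while 11.6% of all genes tested did. DESeq2 and the likelihood ratio test each called 1, Igf1, and limma-voom called 0, where they called 318, 312 and 57 of the 16120 genes tested. The log2 differences were positive for 25 and negative for 19, with a median of 0.02. Both Mef2dα2 Eko libraries lay above both WT libraries for 10 and below for 7 of the 44, where 20.8% and 23.0% of all genes tested did so.

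Within the pathways, the RET adaptors that carry the signal inside the cell were near even, with 6 of 9 positive and a range from -0.34 to 0.20 on the log2 scale. The 6 genes that relay CNTF and LIF signals ranged from -0.15 to 0.17. The largest differences in each direction were those of the ligand genes Igf1 and Ptn.

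Igf1, a growth factor for muscle and motor neurons, was at 28.4 and 38.2 CPM in WT against 15.8 and 20.8 CPM in Mef2dα2 Eko. All its Mef2dα2 Eko values were below its WT values, with a log2 difference of -0.86 (SE 0.17, adjusted p of 0.139 by edgeR). The adjusted p of Igf1 fell below 0.05 in 7 of 13 alternatives, those without WT replicate 1, Eko replicate 1 or Eko replicate 2 among them (0.0207, 0.0254 and 0.00651 by edgeR), and the difference ranged from -1.07 to -0.62. Each of these 3 fits left 1 mouse in a genotype, which is assumed to vary like the pair of the other genotype. Ptn, the gene for pleiotrophin, a heparin-binding factor that promotes nerve growth, was at 0.435 and 0.618 CPM in WT against 1.04 and 1.09 CPM in Mef2dα2 Eko. Its log2 difference was 1.01 (SE 0.30, adjusted p of 0.283 by edgeR), the largest positive value of the 44 genes, and its adjusted p was below 0.05 in 1 of 13 alternatives.

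**Figure D3:**
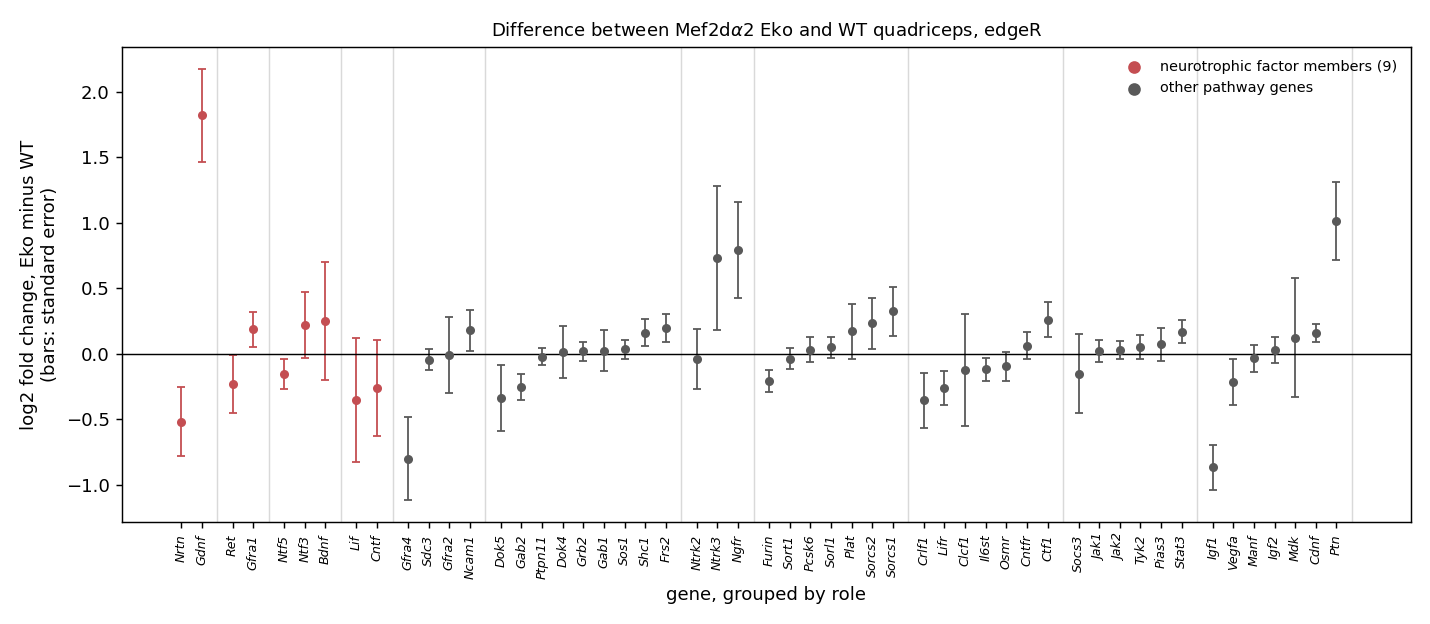
Log2 difference of Mef2dα2 Eko minus WT for the 9 genes (red) and other tested genes of their pathways (grey), grouped by role, with bars for the standard error from the edgeR fit. Gdnf is highest at 1.82, Ptn follows at 1.01, and Igf1 is lowest at -0.86.

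In a whole-muscle library, a larger number of cells of one type and more RNA per cell cannot be told apart. Markers of other cell types were therefore summed in each library. By edgeR 0 of 52 tested markers were called (0.416% of all genes tested were), and 13 had an unadjusted p below 0.05 (11.6% of all genes tested did). DESeq2 called 1 (Myh1), the likelihood ratio test called 1 (Cfd) and limma-voom called 0. Of the 16120 genes tested, these methods called 318, 312 and 57. The median log2 difference of the markers was -0.01.

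The Schwann cell sum over 8 markers was 45.3 and 47.7 CPM in WT against 49.9 and 60.8 CPM in Mef2dα2 Eko, so both Mef2dα2 Eko libraries were above WT and the ratio of means was 1.19. Smooth muscle and pericyte markers, 303 and 288 CPM in WT against 316 and 352 CPM in Mef2dα2 Eko, had a ratio of 1.13. Satellite cell markers also had a ratio of 1.13. As a percentage of the Schwann cell sum, Gdnf was 0.553 and 0.985 in WT against 2.72 and 1.98 in Mef2dα2 Eko, and as a percentage of the smooth muscle sum it was 0.0827 and 0.163 against 0.430 and 0.341. The part of these cells in the Gdnf difference was not tested.

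Macrophage markers, like Igf1, were lower in both Mef2dα2 Eko libraries, with a sum of 24.8 and 19.9 CPM in WT against 18.8 and 12.9 CPM in Mef2dα2 Eko. The adipocyte sum differed most, with 80.1 and 30.7 CPM in WT against 25.8 and 11.2 CPM in Mef2dα2 Eko. Of the 5 markers only the adipokine gene Cfd lay below both WT libraries in both Mef2dα2 Eko libraries. Cfd was at 48.5 and 16.9 CPM in WT against 8.61 and 5.72 CPM in Mef2dα2 Eko (log2 difference -2.18, SE 0.46, adjusted p of 0.162 by edgeR). The lipid droplet genes Cidec and Plin1 followed with log2 differences of -1.36 (SE 0.56) and -1.20 (SE 0.58), and both overlapped between the genotypes. Of the 5 adipocyte markers 4 were negative, and Lep, the leptin gene, was at 2.40 and 2.00 CPM in WT against 4.43 and 0.615 CPM in Mef2dα2 Eko, a log2 difference of 0.21. Relative to the macrophage sum, Igf1 was at 115% and 193% in WT against 84.4% and 162% in Mef2dα2 Eko, which overlapped. Relative to the adipocyte sum it was at 35.5% and 125% in WT against 61.4% and 187% in Mef2dα2 Eko, which overlapped too. The part of these cell types in the Igf1 difference was not tested.

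Of 6 markers of axons and neurons, 3 (Chat, Snap25 and Slc18a3) had 0 counts in all libraries, and the summed level was 1.42 and 1.34 CPM in WT against 1.36 and 1.66 CPM in Mef2dα2 Eko. Stmn2 held most of that sum. Fibroblast and endothelium sums overlapped between the genotypes, at 249 to 326 CPM and 126 to 147 CPM. Of the 7 fibroblast markers, however, 6 were negative and 1 positive, and 3 lay below both WT libraries. Of the 5 endothelium markers 4 were negative and 1 lay below both WT libraries, where 23.0% of all genes tested did so.

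**Figure D4:**
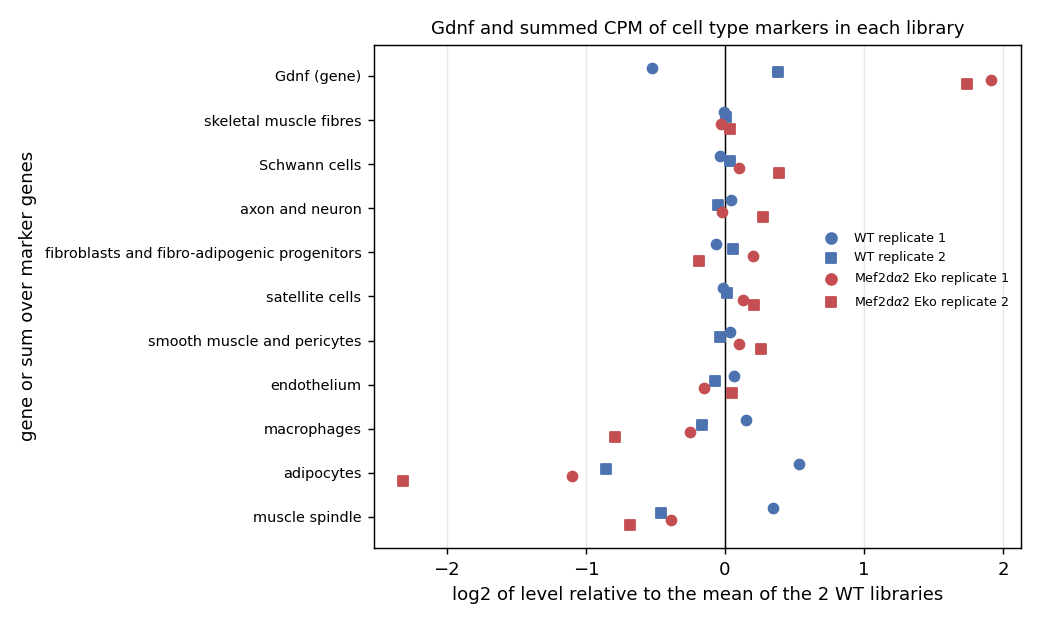
Level of Gdnf and the summed CPM of marker genes for 10 cell types, each as log2 of the library's value over the WT mean, with circles for replicate 1, squares for replicate 2, WT in blue and Mef2dα2 Eko in red. Gdnf sits furthest to the right in both Mef2dα2 Eko libraries, and the adipocyte sum sits furthest to the left in Eko replicate 2.

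Denervation is known to change Gdnf and many other muscle genes, so 18 genes known to respond to denervation were listed. Of the 16 tested, 0 were called by edgeR, DESeq2, the likelihood ratio test or limma-voom. Over all 16120 genes tested, these methods called 67, 318, 312 and 57, in that order. By edgeR 1, the histone deacetylase gene Hdac4, higher in Mef2dα2 Eko by 0.19 (SE 0.08), had an unadjusted p below 0.05, against 11.6% of all genes tested. The median log2 difference was -0.11, with 5 positive and 11 negative and a range from -0.51 to 0.33. Both Mef2dα2 Eko libraries lay above both WT libraries for 3 and below for 1, against 20.8% and 23.0% of all genes tested. Among the widest were the transcription factor gene Runx1 (-0.47, SE 0.21) and the perinatal myosin gene Myh8 (-0.36, SE 0.27). Chrng, the fetal acetylcholine receptor subunit gene, had 3 and 10 counts in WT against 1 and 3 in Mef2dα2 Eko.

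The likeness of other genes to the Gdnf pattern was measured as the root mean square difference of centred log2 CPM over the 4 libraries. The closest was Fam184a (0.125, with 1 and 4 counts in WT against 12 and 10 in Mef2dα2 Eko), then 2310039L15Rik (0.127), Rmrp (0.164), BC035947 (0.191) and Rassf7 (0.208). 2310039L15Rik had 11 and 18 counts in WT against 72 and 48 in Mef2dα2 Eko, and Rmrp had 8 and 22 against 59 and 37. All 5 are low-count genes, and a likeness over 4 libraries in genes of few counts is a description only.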

How the data were processed

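Quadriceps polyA-selected RNA of 2 WT and 2 Mef2dα2 Eko mice was sequenced, and samples were grouped by the genotype in their labels. The authors aligned reads to mm10 (STAR 2.6.1a is named in the submitters' processing notes) and deposited RSEM expected counts per gene with the Ensembl GRCm38 annotation. All deposited values were whole numbers, a rounding step is not given in the sources used here, and neither is the strand setting. Library totals were 72626757 to 85176059.

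The 9 genes and all other lists were chosen with earlier results of these data known. Genes were filtered by edgeR's default rule, scaled by TMM and fitted in edgeR 4.0.16 by quasi-likelihood (limma 3.58.1, R 4.3.3), with genotype as the only term and Benjamini-Hochberg adjustment over all 16120 genes. CPM used TMM library sizes. CPM per kilobase used the union of GENCODE exons. The statistics were tested on simulated data. Named outside the 9 were Mef2d, genes sharing exons with a member, a fixed set of ligands and receptors, every called gene and the 3 largest differences of each list, and the 5 genes most like Gdnf. Some genes that this rule names are not reported here. Gfra4, Gab2, Furin, Hdac4, Chrng, Egr3, Myh1, Adipoq, Lep, Stmn2 and the genes at 0 were named after their values were seen. Alternatives were DESeq2 1.42.0, edgeR's likelihood ratio test, limma-voom, other scalings, filters and prior counts, a replicate block, and leaving out each mouse. Each library came from 1 mouse, so p-values rest on the spread between these 4 animals, with the spread of each gene moderated by that of all genes tested. Promoter sequences were taken from RefSeq (GRCm38.p6).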

Additional observations from a re-analysis of the deposited data

How the results depend on the processing

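Gdnf, Nrtn, Gfra1, Ntf3, Ntf5 and Lif kept the direction of their difference under every alternative that gave a value, and Ret, Bdnf and Cntf each changed it in 1. The groups did not overlap in CPM for the genes that kept it, and they did for Ret, Bdnf and Cntf. Where groups do not overlap, leaving out a mouse leaves little room for a reversal. The number of genes called, 67, became 318 with DESeq2 (132 higher, 186 lower), 312 with the likelihood ratio test (114 higher, 198 lower), 799 with no filter on low counts (303 higher, 496 lower), 23 with a minimum of 1 CPM in 2 libraries and 186 with the replicate block, against 17 higher and 50 lower. Leaving out 1 mouse gave 99 to 299. The members called, 0, became 1 (Gdnf) with DESeq2, with the likelihood ratio test and with no filter, and 0 to 1 when a mouse was left out (1 without WT replicate 2), which leaves a lone mouse assumed to vary like the other genotype. Of the other pathway genes, 0 became 1 (Igf1) with DESeq2, the likelihood ratio test and the replicate block, 2 (Igf1 and Ptn) with no filter, and 0 to 1 when a mouse was left out. Of the cell type markers, 0 became 1 with DESeq2 and with the likelihood ratio test, 10 with no filter, 4 (Adipoq, Cfd, Cidec and Plin1) with the replicate block, and 0 to 8 when a mouse was left out. The cause of these changes was not tested. The denervation-responsive genes called stayed at 0 in each. The minimum of 1 CPM left 5 of the 9 members to be tested.

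Whether same-numbered mice formed pairs could not be told. The correlation of their deviations was 0.0909 over 16120 genes, with 2 pairs. With 2 mice per genotype the deviations of replicate 2 mirror those of replicate 1, so the pairs are not independent. The replicate block changed no call of a member. With 14 to 22 counts for Lif and 20 to 47 for Bdnf, small differences in these genes were not detectable at this depth.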

Other observations

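Muscle spindles are sense organs whose intrafusal fibres depend on sensory innervation. The 5 spindle markers all had negative log2 differences, with a median of -0.34, but their sum overlapped, at 125 and 71.6 CPM in WT and 75.2 and 61.2 CPM in Mef2dα2 Eko. WT replicate 1 stood above the rest. Egr3, a transcription factor gene needed for spindle formation, had 35 and 6 counts in WT and 12 and 9 in Mef2dα2 Eko. WT replicate 1 also had the highest adipocyte and macrophage sums and the lowest Gdnf count.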
